A study of Homo sapiens with 80 samples.

Results

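The 46 genes described here are a set of cell division genes given by name, out of 43388 genes in the deposited tables. They fall into 4 groups. The 17 S phase genes are CCNE1, CCNE2, CDC25A, CDK2, E2F1, E2F2, E2F7, E2F8, PCNA, MCM2, MCM3, MCM4, MCM5, MCM6, MCM7, RRM2 and TYMS. The 20 mitotic genes are MKI67, TOP2A, CDK1, CCNB1, CCNB2, CCNA2, CDC20, CDC25B, CDC25C, PLK1, AURKA, AURKB, BUB1, BUB1B, MAD2L1, TTK, CENPA, CENPE, CENPF and BIRC5. Beside these stand 5 D-type cyclins and their kinases (CCND1, CCND2, CCND3, CDK4 and CDK6) and 4 genes that restrain entry into S phase (CDKN1B, CDKN2A, CDKN2B and RB1). All 46 were present in both experiments and all passed the filter on low values. CDKN2A reached 1 TPM (transcripts per 1e6) in low purity wells alone, so its test between the classes was available only because it was higher there.

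A cell that commits to division first makes D-type cyclins, which activate CDK4 and CDK6 and thereby inactivate the retinoblastoma protein RB1. Release of E2F transcription factors from RB1 turns on the genes of DNA replication, and cyclin E with CDK2 drives entry into S phase. A later wave of genes for spindle assembly, chromosome segregation and the cyclin B-CDK1 kinase carries the cell through mitosis. The p15 and p16 proteins made from CDKN2B and CDKN2A block CDK4 and CDK6, and p27 from CDKN1B blocks cyclin-CDK complexes. Pluripotent stem cells divide fast with little G1 phase, and cardiomyocytes largely leave the cell cycle as they mature, while fibroblasts and other stromal cells can go on dividing.

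The samples were human pluripotent stem cells directed to cardiomyocytes with the Wnt activator CHIR99021 on day 0 and the Wnt inhibitor IWP2 on day 2 or 3, in medium that held no insulin until day 6 or 7. Each differentiation was classed afterwards as high or low purity by staining of day 16 cells for cardiac troponin T, read by flow cytometry. In the multi-omic experiment, poly(A) libraries were made from the induced pluripotent stem cell line WTC11: 25 wells of 1 high purity differentiation at passage 52 and 31 wells of 1 low purity differentiation at passage 69, taken every 2 days from day 0 to day 10 and then on days 13 and 16, with 1 to 4 wells per class and day. In the RNA-only experiment, total RNA libraries were made from 6 differentiations, 1 high and 1 low in each of the embryonic stem cell line H9 (high passage 58, low passage 55) and the induced lines IMR90-4 (high 55, low 75) and WTC11 (high 81, low 69), with 1 library at each of 4 matched stages: the days of CHIR99021 addition, IWP2 addition, IWP2 removal and insulin addition (days 0, 2, 4 and 6 for WTC11 and 0, 3, 5 and 7 for the others). Purity, passage and differentiation cannot be told apart in the multi-omic experiment. The wells of a class came from the same differentiation, so the p-values there measure the spread between wells and not between differentiations. In these bulk samples, fewer dividing cells and less RNA per dividing cell also cannot be told apart.

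Pluripotency markers summed to between 4599 and 5523 TPM on day 0 and to at most 50.4 TPM on day 16, when the cardiomyocyte markers summed to between 5039 and 15878 TPM. The depth was 6580000 to 18100000 reads per library in the multi-omic experiment and 18000000 to 40400000 in the RNA-only experiment. The multi-omic columns of the deposited count table went against those of the TPM table: none of the 56 count columns matched the TPM column of its own name and 50 matched one of another name. The TPM columns were used, since the nearest RNA-only WTC11 library was of the labelled day for 28 of the 32 TPM columns of days 0 to 6 and for 6 of the 32 count columns. Under the names of the count table the comparisons with day 0 reverse, with 20 of 20 mitotic and 13 of 17 S phase genes called higher on day 8 than on day 0 in the high purity class, and no member differs between the classes on day 16. Every multi-omic result below rests on the names in the TPM table.

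The promoters of the S phase and mitotic genes carry different short sequences, which are shown because more S phase than mitotic genes were called on day 2. RefSeq promoter windows of 300 bases, from 250 before to 50 after the transcription start, were matched by symbol for 36 of the 46 genes. The cell cycle homology region (CHR) letters TTTGAA, searched on both strands, occurred in 11 of 17 mitotic windows (64.7%), in 0 of 12 S phase windows and in 18.2% of the windows of all 27305 genes. The CCAAT box letters occurred in 15 of 17 mitotic windows and 8 of 12 S phase windows, against 39.7% of all windows. E2F letters (TTTGGCGC, TTTCGCGC, TTTCCCGC or TTTGCCGC on either strand) occurred in 9 of 12 S phase windows (75.0%), in 2 of 17 mitotic windows, those of CDK1 and CENPA, and in 3.99% of all windows. None of the 3 matched cyclin D and kinase windows and none of the 4 inhibitor windows held the CHR or E2F letters. A match is a description of letters and not of a bound site. The 150 bases before the start are printed 5′ to 3′ on the gene's strand for 3 mitotic genes, with CHR and CCAAT letters in capitals.
PLK1 (GRCh38.p14, chr16:23678739-23678888, plus strand): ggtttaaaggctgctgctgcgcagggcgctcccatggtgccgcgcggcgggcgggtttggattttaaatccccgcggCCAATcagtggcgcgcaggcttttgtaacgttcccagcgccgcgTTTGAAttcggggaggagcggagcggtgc
CCNB2 (GRCh38.p14, chr15:59104996-59105145, plus strand): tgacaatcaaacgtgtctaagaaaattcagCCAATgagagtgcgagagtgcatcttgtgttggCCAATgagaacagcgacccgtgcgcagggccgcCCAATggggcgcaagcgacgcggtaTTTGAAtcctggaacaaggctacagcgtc
MKI67 (GRCh38.p14, chr10:128126424-128126573, minus strand): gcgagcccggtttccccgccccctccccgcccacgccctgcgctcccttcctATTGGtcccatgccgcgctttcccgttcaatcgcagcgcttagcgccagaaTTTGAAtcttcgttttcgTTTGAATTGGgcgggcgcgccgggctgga
In these, 1 CHR match began 29 bases before the start in each of the 3 genes, and the second match of MKI67 overlaps a CCAAT match on the other strand. For 3 S phase genes the same stretch is printed with the E2F letters in capitals.
E2F1 (GRCh38.p14, chr20:33686386-33686535, minus strand): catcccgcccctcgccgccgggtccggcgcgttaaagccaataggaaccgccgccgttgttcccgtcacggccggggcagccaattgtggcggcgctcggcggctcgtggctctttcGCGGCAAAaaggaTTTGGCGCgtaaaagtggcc
CDC25A (GRCh38.p14, chr3:48188418-48188567, minus strand): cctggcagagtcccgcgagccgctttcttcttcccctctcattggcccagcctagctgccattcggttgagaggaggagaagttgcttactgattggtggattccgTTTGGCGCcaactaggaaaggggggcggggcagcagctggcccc
MCM6 (GRCh38.p14, chr2:135876444-135876593, minus strand): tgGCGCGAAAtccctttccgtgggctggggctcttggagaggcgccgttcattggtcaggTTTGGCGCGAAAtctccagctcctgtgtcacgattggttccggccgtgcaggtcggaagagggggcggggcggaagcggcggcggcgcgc
E2F1 and MCM6 hold more than 1 match, and of the 3 matches of MCM6 the middle and the last overlap.

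Transcripts of both groups fell between day 0 and day 16 in both classes, with more S phase than mitotic genes called on day 2. A gene was called when its Benjamini-Hochberg adjusted p was under 0.05 and its log2 fold change at least 1 in size, in a limma fit of log2(scaled TPM + 1) over all 25664 genes that passed the filter; a fall or rise below means a called change. In the high purity class 13, 6, 11, 13, 14 and 13 of the 17 S phase genes had fallen from day 0 on days 2, 4, 6, 8, 13 and 16, while 7.04%, 7.74%, 10.4%, 12.7%, 14.8% and 16.0% of all genes fell. In the low purity class the counts were 10, 5, 11, 11, 15 and 14, against 6.87%, 9.35%, 11.8%, 12.7%, 14.7% and 14.6% of all genes. Without scaling beyond TPM the day 4 counts were 2 and 3. The comparisons with day 0 share the day 0 wells of their class.

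**Figure D1:**
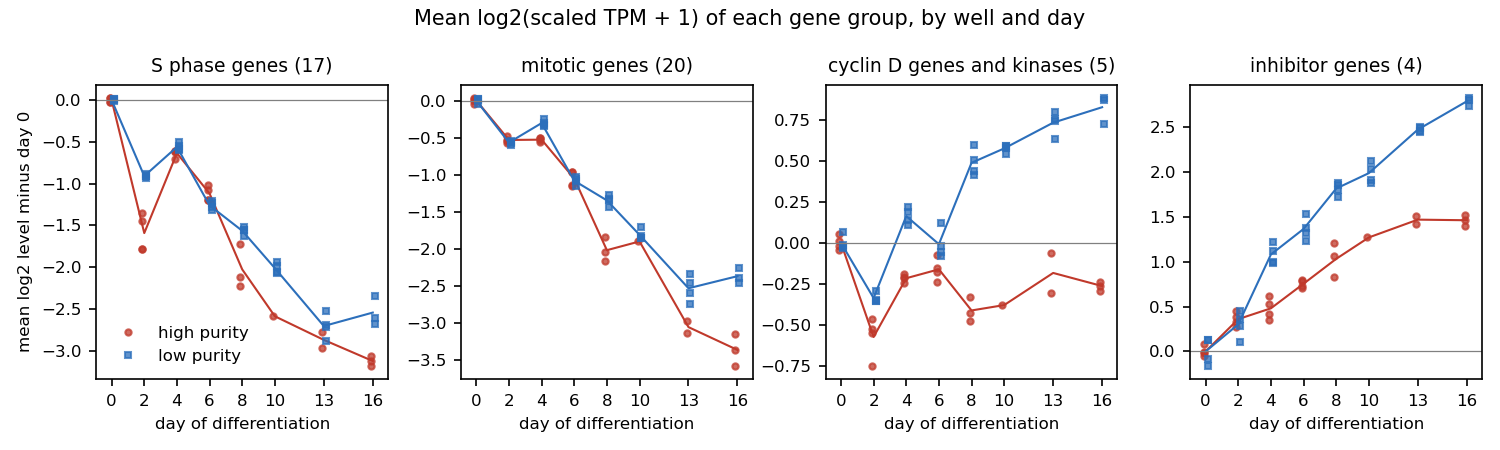
Mean log2(scaled TPM + 1) of each of the 4 gene groups in each well, as the difference from the class mean on day 0, by day of differentiation. Points are wells and lines join class means. The S phase mean was -1.59 on day 2 and -0.64 on day 4 in the high purity wells, and -0.91 and -0.56 in the low. Both S phase and mitotic genes ended lower in the high than in the low purity wells.

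CCNE1, which encodes cyclin E1, had 67.6, 69.6, 66.2 and 70.0 TPM in the 4 high purity wells on day 0 and 14.1, 8.59, 8.36 and 14.7 TPM on day 2. The low purity wells had 63.5 to 73.8 TPM on day 0 and 25.5, 26.0, 25.7 and 24.2 TPM on day 2. The ranges of the classes overlapped on day 0 and were apart on day 2. Its log2 change from day 0 to day 2 was -2.56 ± 0.14 (SE) in the high and -1.56 ± 0.14 in the low purity class. MCM5, a subunit of the replicative helicase, went from 157 to 167 TPM on day 0 to 32.6 to 41.8 TPM on day 2 in the high purity wells, and from 145 to 155 TPM to 46.6 to 52.6 TPM in the low purity wells. E2F1, an activating member of the E2F family, stood at 25.2 to 29.8 TPM and then at 5.80 to 8.53 TPM in the high purity wells. Its change in the low purity class, from 16.9 to 23.3 TPM to 12.7 to 15.2 TPM, was not called (-0.62 ± 0.19).

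The early drop of the S phase mean was partly undone by day 4 in both classes. Set against day 0, the mean of log2(scaled TPM + 1) went from -1.59 on day 2 to -0.64 on day 4 in the high purity wells. In the low purity wells it went from -0.91 to -0.56. Between days 2 and 4, a step chosen after seeing the data, 7 of 17 S phase genes rose in the high purity class: CCNE1, CCNE2, CDC25A, E2F1, E2F2, E2F8 and MCM6. The changes ranged from 1.07 for CCNE2 to 2.11 for E2F8 on the log2 scale. Of all genes 6.73% rose and 6.96% fell in that step. Of the 17, 1 rose in the low purity class, E2F8 (1.59 ± 0.14), against 8.17% of all genes that rose and 8.7% that fell; without low purity day 2 well 3 the count was 2. Whether the classes differ in that step was not tested. CCNE1 was back at 34.0 to 35.4 TPM in the high purity wells on day 4 and at 20.5 to 26.1 TPM in the low purity wells, so that the order of the classes was the opposite of that on day 2. E2F8, an E2F family repressor, showed no lasting fall in either class. TYMS, thymidylate synthase, moved against its group: 35.3 to 43.0 TPM on day 0 became 123 to 132 TPM on day 4 in the low purity wells (1.51 ± 0.11), while the high purity wells went from 43.0 to 47.0 TPM to 71.8 to 81.4 TPM, which was not called. About 39.2% of the exon bases of TYMS overlap ENOSF1 on the other strand, and the strand setting of the counting is not given in the sources used here.

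By day 16 the S phase genes stood at a median log2 change of -3.21 in the high and -3.00 in the low purity class, against 0.05 and 0.09 over all genes. RRM2, the small subunit of ribonucleotide reductase, fell from 172 to 181 TPM on day 0 to 1.15, 1.42 and 1.94 TPM on day 16 in the high purity wells. In the low purity wells it fell from 155 to 168 TPM to 13.9, 8.84 and 10.5 TPM. The day 16 values of the classes did not overlap. PCNA, the sliding clamp of DNA polymerases, fell from 436 to 486 TPM to between 17.6 and 27.4 TPM in the high and from 335 to 367 TPM to 67.8, 56.8 and 48.5 TPM in the low purity wells. MCM2, another helicase subunit, ended at 5.45 to 7.34 TPM and 6.90 to 11.6 TPM, ranges that overlapped. The same reading holds for CCNE1, at 5.83 to 7.86 TPM and 6.77 to 9.50 TPM.

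**Figure D2:**
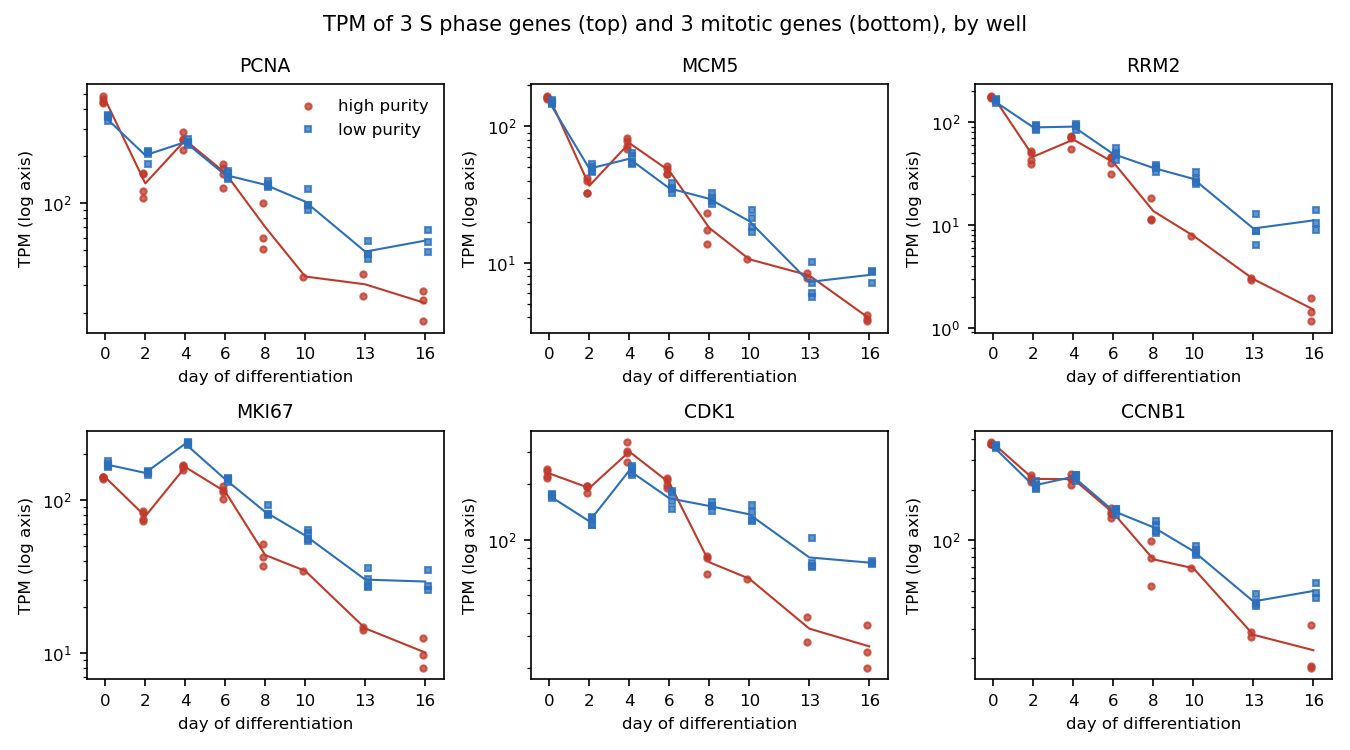
Deposited TPM of named S phase and mitotic genes in each multi-omic well by day, on a log axis, with wells of the high and low purity class in different colours. RRM2 ends between 1.15 and 1.94 TPM in the high purity wells and between 8.84 and 13.9 TPM in the low purity wells.

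Few mitotic genes were called below day 0 before day 6, although their mean level was lower by day 2. The mean of log2(scaled TPM + 1) over the 20 genes, set against day 0, was -0.53 ± 0.04 (SD, n = 4) on day 2 and -0.53 ± 0.02 on day 4 in the high purity wells, and -0.57 ± 0.02 and -0.30 ± 0.04 in the low purity wells. The day 0 wells lay within -0.05 and 0.04, so the day 2 and day 4 wells were apart from them. On day 6 the means were -1.05 ± 0.11 and -1.08 ± 0.05. In the high purity class 2, 3, 11, 20, 20 and 20 of the 20 mitotic genes had fallen on days 2, 4, 6, 8, 13 and 16, and in the low purity class 3, 1, 11, 16, 19 and 19, beside the same shares of all genes as above. Without scaling beyond TPM the counts were 0 on day 4 in both classes and 0 on day 2 in the low purity class. MKI67, the proliferation marker Ki-67 (chr10:128096659-128126423 in GRCh38), had 138 to 142 TPM on day 0, 156 to 169 TPM on day 4, 51.8, 42.5 and 36.8 TPM on day 8 and 8.03, 12.5 and 9.78 TPM on day 16 in the high purity wells. The low purity wells had 164 to 181, 228 to 238, 79.7 to 92.8 and then 34.7, 27.4 and 26.0 TPM. High and low purity wells did not overlap on any of those days, and the high purity wells were the lower ones each time. TOP2A, the topoisomerase that untangles replicated chromosomes, went from 404 to 439 TPM on day 0 to 30.5 to 52.7 TPM on day 16 in the high and from 390 to 406 TPM to 87.3 to 93.1 TPM in the low purity wells.

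CDK1, the kinase that starts mitosis, had 221, 243, 236 and 217 TPM on day 0 and 79.4, 81.6 and 65.2 TPM on day 8 in the high purity wells. In the low purity wells it had 172, 178, 169 and 174 TPM on day 0 and still 153, 152, 144 and 161 TPM on day 8. The order of the classes thus turned over between day 0 and day 8, without overlap on either day. Its log2 change to day 8 was -1.59 ± 0.09 in the high purity class and -0.46 ± 0.09, not called, in the low purity class. CCNB1, the cyclin B1 partner of CDK1, had fallen by day 6 in both classes, from 372 to 383 TPM to 136 to 155 TPM in the high and from 352 to 370 TPM to 142 to 153 TPM in the low purity wells. PLK1, a kinase of mitotic entry and spindle assembly, was at 72.2 to 104 TPM and 64.6 to 69.8 TPM on day 6, and at 7.02 to 12.2 TPM and 16.8 to 21.7 TPM on day 16.

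Between day 6 and day 8, also a step chosen after seeing the data, 10 of 20 mitotic and 6 of 17 S phase genes fell in the high purity class, while 2.72% of all genes fell and 2.87% rose. In the low purity class none of either group was called by limma, with 9 mitotic and 9 S phase genes at an adjusted p under 0.05 but under the fold threshold, while 1.28% of all genes fell and 2.03% rose. Over all 25664 genes 6607 had an adjusted p under 0.05 in that step of the low purity class. The median log2 change of the mitotic genes was -1.01 in the high and -0.26 in the low purity class. MKI67 fell by 1.12 ± 0.09, CDK1 by 1.19 ± 0.09 and CENPA, the histone variant of centromeres, by 1.52 ± 0.14 in the high purity class. Day 8 high purity well 1 had the highest mean S phase and mitotic levels of its 3 wells (-1.73 and -1.84 from day 0); without it 10 S phase genes fell, and without well 4 the mitotic count was 6. Without scaling beyond TPM the counts in the high purity class were 17 mitotic and 11 S phase genes, with a shift of -0.18 in the median of all genes. Between days 8 and 16 a further fall was called for 16 mitotic and 11 S phase genes in the high purity class (5.23% of all genes fell, 6.14% rose) and for 11 and 9 in the low purity class (2.8% fell, 3.59% rose); without scaling beyond TPM the low purity count was 18 mitotic genes.

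The time of a lasting fall was read as the first day from which a gene stayed called lower than on day 0. This day describes each transcript, since cells leaving the cycle were not measured. For the S phase genes of the high purity class it was day 2 for CCNE1, CDC25A, PCNA, MCM5, MCM7 and RRM2, day 6 for E2F1, MCM2, MCM3, MCM4 and MCM6, and day 8 for E2F2 and E2F7. CCNE2, CDK2, E2F8 and TYMS never met the rule there, and CDK2, E2F8 and TYMS did not in the low purity class, where CCNE2 met it on day 16 (not without low purity well 3 of that day). Among the mitotic genes of the high purity class AURKB came first, on day 2, then CDC20 and BUB1 on day 4, 8 genes on day 6 and 9 genes on day 8, among them MKI67, TOP2A and CDK1. In the low purity class BUB1 met the rule on day 4, 10 genes on day 6, 5 genes on day 8 (MKI67, TOP2A, CCNB2, CENPE and CENPF) and CDK1, CDC25C and CENPA on day 13. CDC25B, a phosphatase that activates CDK1, never met it in the low purity class (-0.36 ± 0.11 on day 16) and met it on day 8 in the high purity class. The lasting fall came on an earlier day in the high purity class for 7 mitotic genes (CDK1, CDC20, CDC25B, CDC25C, AURKB, CENPA and CENPE). It came earlier in the low purity class for BIRC5, with 12 on the same day. Of the S phase genes 3 were earlier in the high purity class, 2 in the low, and 12 fell on the same day or in neither class. These days are a description: the rule turns on thresholds, and without scaling beyond TPM 13 and not 16 mitotic genes had fallen for good by day 8 in the low purity class.

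Between the classes, S phase genes stood lower in the high purity wells on day 2, mitotic genes on days 8 and 16. On day 0 no member was called by limma, and 10 had an adjusted p under 0.05 with a smaller fold. Of all genes 0.242% were called higher and 0.826% lower in the high purity class, and 3757 of 25664 had an adjusted p under 0.05. On day 2 the log2 difference (high minus low) was negative for 17 of 17 S phase genes, with a median of -0.54 against 0 over all genes. Of these CCNE1 (-1.06 ± 0.14, adjusted p = 7.3e-08), CCNE2 (-1.17 ± 0.21, adjusted p = 1.3e-05) and E2F8 (-1.00 ± 0.14) were called, beside 2.24% of all genes called higher and 3.08% lower. CCNE2, the cyclin E2 gene, had 1.75, 0.482, 0.611 and 1.95 TPM in the high and 4.75, 3.50, 3.91 and 3.39 TPM in the low purity wells. High purity wells 2 and 3 were the lower pair for CCNE1, CCNE2, PCNA and RRM2. Without well 2 no S phase gene was called, and without well 3 only CCNE2 was. No mitotic gene was called on day 2; their median difference was 0.26, from -0.87 for MKI67 to 0.86. Several marker lists differed on that day as well. Pluripotency markers summed to 2242 to 2523 TPM in the high and 1334 to 1386 TPM in the low purity wells, with 3 of 7 called higher. Endothelial markers summed to 199 to 231 TPM against 65.7 to 87.3 TPM (1 of 6 called higher, CDH5 at 0 in both classes), and endoderm markers to 70.6 to 130 TPM against 46.6 to 52.7 TPM (1 of 5 tested called higher). Cardiomyocyte markers were lower, at 30.8 to 34.1 TPM against 48.5 to 53.0 TPM, with 2 of 12 called. The part of these markers' cells in the S phase difference was not tested.

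On days 4 and 6 no S phase or mitotic gene was called between the classes by limma, while 9 and 8 S phase genes and 7 and 12 mitotic genes had an adjusted p under 0.05 with a smaller fold. Over all 25664 genes 9447 and 10230 had an adjusted p under 0.05 on these days. The 3 members called on day 4 and the 3 on day 6 were CCND1, CDK6 and CDKN2B, described below. Of all genes 3.62% were higher and 4.22% lower in the high purity class on day 4, and 3.61% and 5.19% on day 6.

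By day 8 the mitotic genes stood lower in the high purity wells. The log2 difference was negative for 20 of 20, with a median of -0.58, and 19 had an adjusted p under 0.05, as did 11329 of all 25664 genes. Of the 20, 1 passed the fold threshold: CENPA (-1.25 ± 0.14, adjusted p = 7.3e-10), with 10.1, 7.65 and 7.14 TPM in the high and 26.9, 22.2, 24.7 and 24.2 TPM in the low purity wells. RRM2 was the S phase gene called (-1.15 ± 0.14), at 18.3, 11.5 and 11.1 TPM against 38.2, 33.0, 35.7 and 36.5 TPM. Both genes were apart without overlap, and well 1 was again the highest of the high purity wells. Without that well 3 mitotic and 3 S phase genes were called, and without low purity well 2 there were 2 mitotic genes. Without scaling beyond TPM 5 mitotic genes were called, and 2 S phase genes with a pseudocount of 0.1 or with edgeR on recovered reads. Of all genes 4.66% were called higher and 7.5% lower, so 1 of 20 mitotic and 1 of 17 S phase genes is no more than the share of all genes. On day 13, with 2 high and 4 low purity wells, CDK1 (-1.07 ± 0.11) and RRM2 (-1.18 ± 0.16) were the genes of these groups that were called, with 4.55% of all genes higher and 6.23% lower. Leaving out 1 well at a time gave 0 to 2 mitotic genes (0 without high purity well 2 or low purity well 1, 2 without high purity well 3 or low purity well 3) and 1 to 2 S phase genes (2 without high purity well 2 or low purity well 2). With a pseudocount of 0.1 or edgeR on recovered reads 2 mitotic and 3 S phase genes were called on that day, and without scaling beyond TPM 2 mitotic genes.

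**Figure D3:**
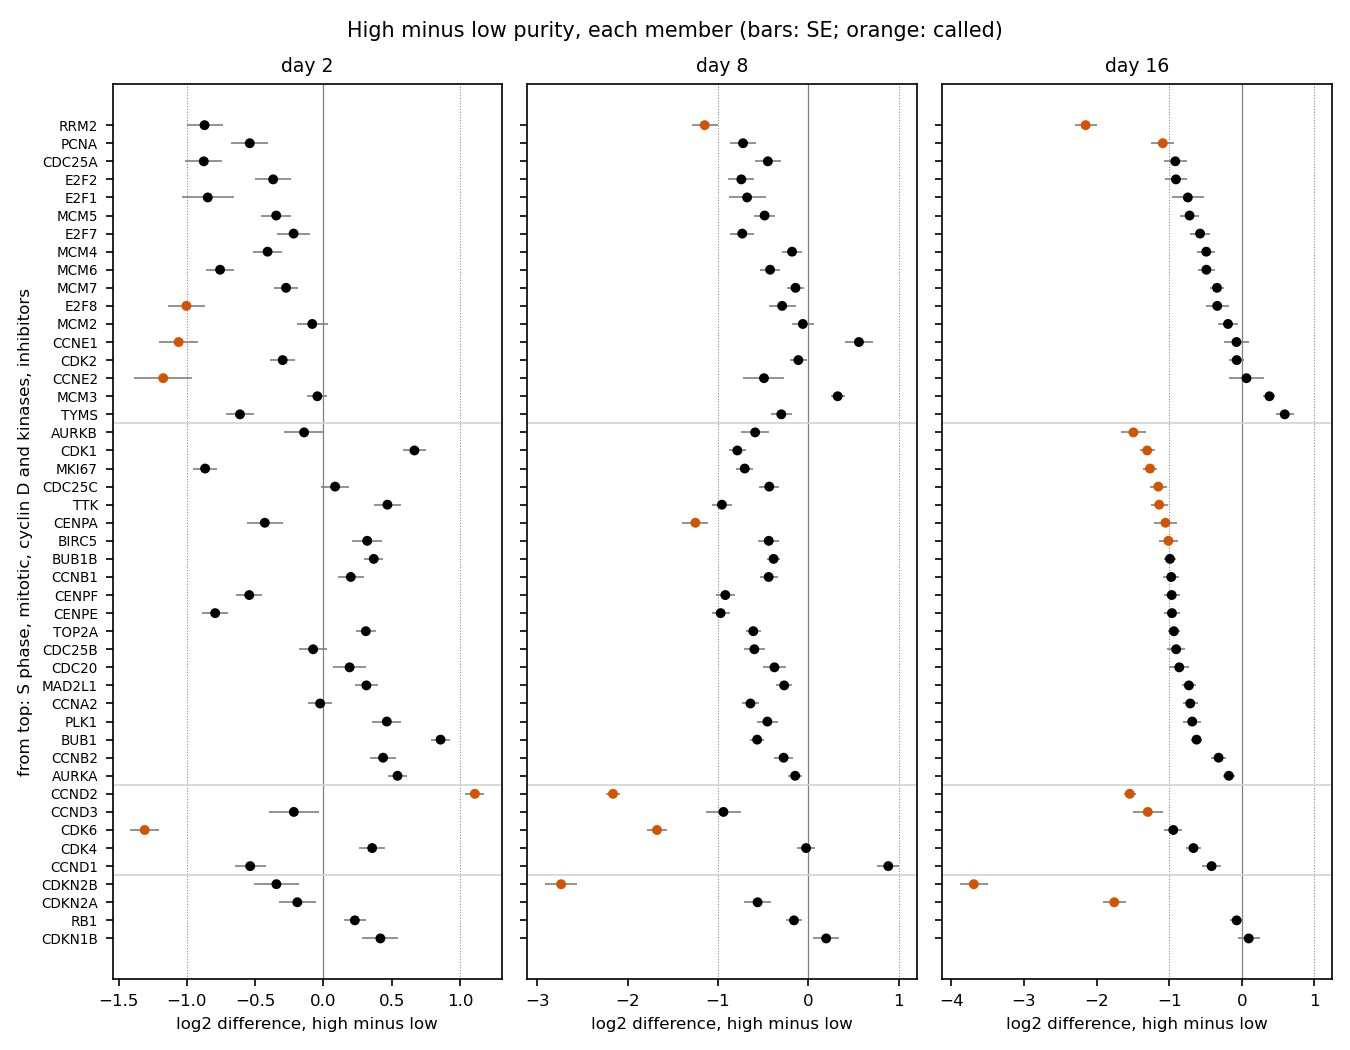
Log2 difference between the high and low purity class (high minus low) for the members of each gene group on days 2, 8 and 16 of the multi-omic experiment, with standard errors as bars and called genes in orange. On day 2 the 17 S phase genes all lie below 0, and on days 8 and 16 the 20 mitotic genes do.

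On day 16, 7 of 20 mitotic genes were called lower in the high purity class. The difference was negative for 20 of 20, with a median of -0.96 against 0 over all genes. Of all genes 5.76% were called higher and 7.65% lower. The gap did not widen steadily from day 8. In the 1 high purity well of day 10 the mean log2(scaled TPM + 1) of the mitotic genes was 5.29, within the 5.26 to 5.40 of the low purity wells. AURKB, the kinase of the chromosomal passenger complex, had 2.24, 5.07 and 2.89 TPM in the high and 14.4, 12.8 and 9.99 TPM in the low purity wells (-1.49 ± 0.17, adjusted p = 3.5e-10). CDK1 had 20.1, 34.2 and 24.4 TPM against 77.1, 73.3 and 74.7 TPM (-1.30 ± 0.10). The other genes called were MKI67 (-1.26 ± 0.10), CDC25C, TTK, CENPA and BIRC5 (-1.01 ± 0.13). CCNB1, at 17.5, 31.5 and 17.9 TPM against 55.7, 45.8 and 48.9 TPM, was just under the fold threshold (-0.97 ± 0.11). None of these values overlapped between the classes, and high purity well 2 was the highest of its class for each of the 4 genes given by well. Without that well 12 mitotic genes were called, the CENPA call was lost without high purity well 1 or low purity well 2, and without scaling beyond TPM there were 14.

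Of the S phase genes PCNA (-1.09 ± 0.16) and RRM2 (-2.15 ± 0.15, adjusted p = 4.9e-16) were lower in the high purity class on day 16. With a pseudocount of 0.1 the count was 4 S phase genes, and with edgeR on recovered reads 6. The PCNA call was lost without high purity well 2 (-0.86) and without low purity well 1 (-0.97). TYMS had the opposite sign, with 23.7, 26.9 and 26.8 TPM in the high and 17.0, 22.5 and 19.6 TPM in the low purity wells (0.59 ± 0.12, under the fold threshold), and so did MCM3 (0.38). Of the exon bases of RRM2, 20.2% overlap the transcript AC007240.1 on the same strand.

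The composition of the wells moved with these differences. On day 16, 7 of 8 fibroblast and stromal markers were lower in the high purity class, with a summed level of 576 to 691 TPM against 9701 to 13180 TPM, as were 6 of 6 epicardial markers (at most 12.3 against at least 222 TPM) and 4 of 4 tested smooth muscle markers (192 to 207 against 1161 to 1284.5 TPM), with MYH11 at 0 in every well. Of the cardiomyocyte markers 8 of 12 were higher (13786 to 15878 against 5039 to 7494 TPM). On day 8 the counts were 6 of 8 stromal and 3 of 6 epicardial markers lower and 9 of 12 cardiomyocyte markers higher in the high purity class. Smooth muscle markers overlapped on that day, at 871 to 1049 TPM in the high and 896 to 1309 TPM in the low purity wells. Pluripotency markers were higher in the high purity wells, at 416 to 570 TPM against 275 to 328 TPM. Endoderm markers summed to 749 to 1457 TPM against 206 to 351 TPM on day 8 and to 74.2 to 476 TPM against 464 to 1244 TPM on day 16, and endothelial markers to 134 to 177 TPM against 194 to 224 TPM and to 38.7 to 44.9 TPM against 160 to 238 TPM. The part of these cells in the lower mitotic and S phase levels was not tested.

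The fall from day 0 to day 16 was itself compared between the classes. The interaction was negative, a larger fall or a smaller rise in the high purity class, for 9 mitotic, 5 S phase, 2 cyclin D and 2 inhibitor genes, and called positive for no member, while 7.99% of all genes were called negative and 5.46% positive. CDK1 differed by -1.64 ± 0.13 (adjusted p = 6.6e-14), having fallen by 2.90 ± 0.09 in the high and 1.25 ± 0.09 in the low purity class. RRM2 differed by -2.21 ± 0.20, from falls of 6.05 and 3.85. MKI67 fell by 3.49 and 2.57, and its interaction did not reach the fold threshold. Without low purity day 16 well 1, 3 S phase genes were called. Without scaling beyond TPM 17 mitotic genes were called, with a shift of -0.17 in the median of all genes. With edgeR on recovered reads CDKN2A was not called, which left 1 inhibitor gene.

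The D-type cyclins did not move as a group. CCND1, the cyclin D1 gene, had 91.4 to 112 TPM in the high and 40.5 to 54.0 TPM in the low purity wells on day 4 (1.14 ± 0.11), after 146 to 211 and 251 to 292 TPM on day 2. High purity wells were thus lower on day 2 and higher on day 4, with no overlap on either day. The low purity class fell by 2.62 ± 0.11 between these days, and on day 6 it was at 21.9 to 41.3 TPM against 89.1 to 106 TPM (1.59 ± 0.11). It came back by 1.36 ± 0.11 between days 6 and 8 and stood at 164 to 192 TPM against 100 to 135 TPM on day 16, a difference that was not called (-0.41 ± 0.13). In both classes CCND1 was called below day 0 on days 4 and 6, and in the low purity class also on day 8. The RNA-only WTC11 libraries shared the order of day 2 (44.3 TPM for high against 86.9 TPM for low purity). They had the reverse order on day 4 (18.5 against 37.2 TPM) and day 6 (20.7 against 44.7 TPM). At these stages high purity was also lower in IMR90-4 (15.7 against 19.8 and 18.9 against 19.9 TPM). It was higher in H9 (10.2 against 8.62 and 12.6 against 4.46 TPM). None of these differences was called.

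CCND2, the cyclin D2 gene, took another course than CCND1 in the multi-omic wells. The order of the classes was opposite to that of CCND1 on day 2. By day 16 both genes were lower in the high purity wells, for CCND1 without a call. On day 2 the high purity wells were higher in CCND2, at 288 to 313 TPM against 140 to 153 TPM (1.11 ± 0.07). The order had turned by day 8, when they had 152, 143 and 124 TPM and the low purity wells 764, 697, 676 and 806 TPM (-2.16 ± 0.08, adjusted p = 3.8e-26). On day 16 the values were 225, 274 and 251 TPM against 879, 831 and 837 TPM (-1.54 ± 0.08). From day 0 to day 16 CCND2 rose in the low purity class (1.82 ± 0.08) and was not called in the high (-0.09 ± 0.08). The RNA-only WTC11 libraries had the reverse order on day 2, with CCND2 lower for high purity (108 against 180 TPM). At the matched stage it was higher for high purity in H9 (116 against 74.5 TPM) and IMR90-4 (72.7 against 52.6 TPM). Over the 3 lines the difference was not called (0.10, adjusted p = 0.95 by edgeR). CCND3, the cyclin D3 gene, was lowly expressed, at 3.27, 3.49 and 4.48 TPM in the high and 13.7, 13.6 and 9.22 TPM in the low purity wells on day 16 (-1.29 ± 0.21). It was also called lower on day 13 (-1.24 ± 0.22), a call lost without high purity well 2 of that day.

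CDK6 rose and CDK4 fell. CDK6 went from 14.8 to 17.2 TPM on day 0 to 60.4, 40.5, 51.1 and 60.2 TPM on day 4 in the high purity wells, and from 19.0 to 21.4 TPM to 232, 219, 206 and 211 TPM in the low purity wells (difference -2.02 ± 0.11, adjusted p = 2.8e-20). It was lower in the high purity class on days 2 (-1.31 ± 0.11), 4, 6 (-1.10 ± 0.11) and 8 (-1.67 ± 0.11). The day 6 call was lost without high purity well 4. On day 16 it had 56.7, 63.9 and 62.5 TPM against 141, 134 and 138 TPM, which did not overlap but was just under the fold threshold (-0.94 ± 0.12). In the RNA-only experiment CDK6 was higher with high purity in all 3 lines at IWP2 removal and at insulin addition. The former values were 19.7 against 14.15 TPM (H9), 23.2 against 15.2 TPM (IMR90-4) and 13.1 against 6.20 TPM (WTC11). The latter were 38.8 against 15.8, 32.6 against 30.8 and 26.0 against 19.0 TPM. At IWP2 addition high purity was lower in H9 and WTC11 and higher in IMR90-4. None of these differences was called. CDK4 fell from 74.1 to 86.1 TPM to 18.7 to 23.2 TPM in the high purity class (-1.64 ± 0.10) and went from 54.2 to 66.7 TPM to 36.4 to 42.5 TPM, not called, in the low. Of its exon bases 43.2% overlap TSPAN31 on the other strand. By the rule for a lasting fall, CCND3 met it from day 8 and CDK4 from day 13 in the high purity class, and none of the 5 genes did in the low. With RLE scaling or with no filter on low values CDK4 alone met it. The CCND3 call was lost on day 8 without high purity well 4, on day 13 without high purity well 2, and on day 16 without high purity day 0 well 4 or day 16 well 2. Of all genes 9.66%, 10.8%, 13.1%, 14.1%, 19.0% and 19.4% rose from day 0 on days 2, 4, 6, 8, 13 and 16 in the high purity class, and 11.0%, 12.8%, 15.9%, 17.2%, 20.4% and 19.5% in the low.

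**Figure D4:**
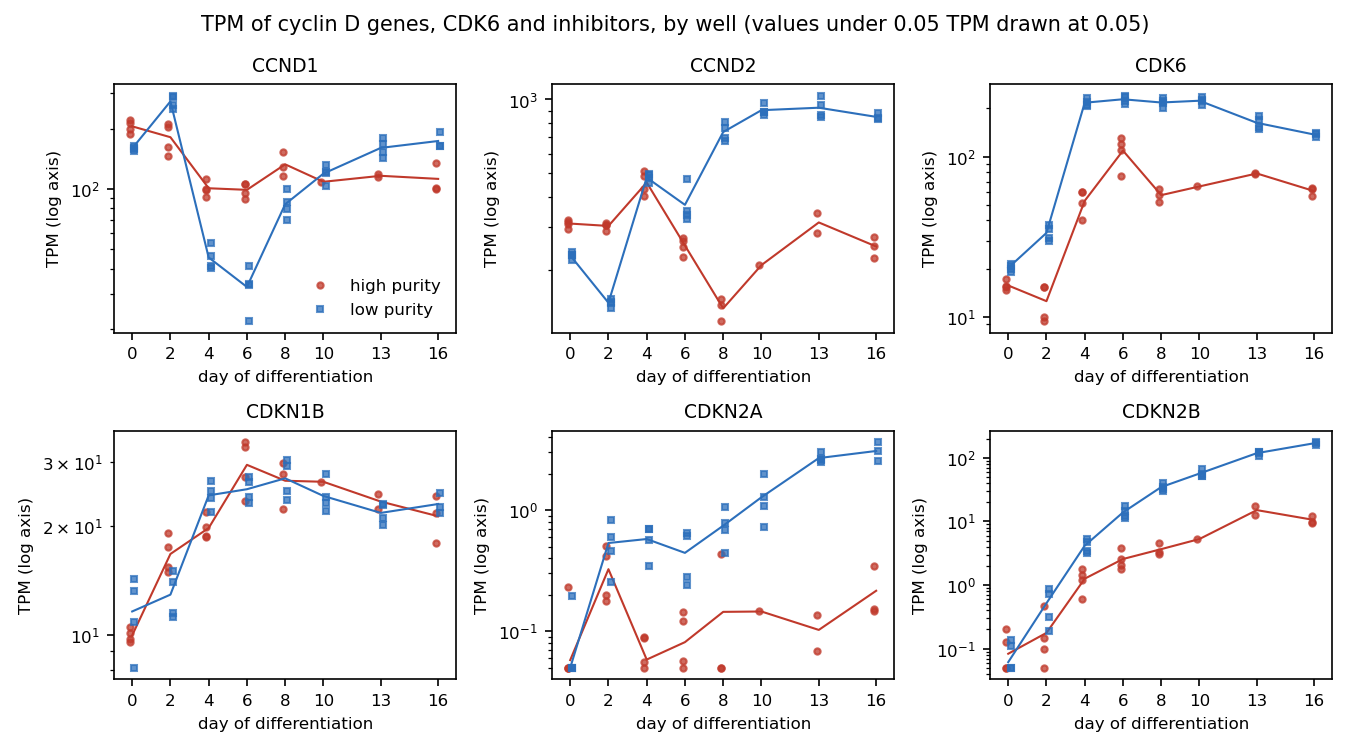
Deposited TPM of cyclin D, kinase and inhibitor genes in each multi-omic well by day, with wells of the high and low purity class in different colours. CCND2 reaches 676 to 806 TPM in the low purity wells on day 8 against 124 to 152 TPM in the high, and CDKN2B climbs to 159 to 175 TPM against 9.60 to 12.0 TPM on day 16.

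Among the inhibitors, CDKN2B differed most between the classes. CDKN2B (p15, chr9:22002903-22009313 in GRCh38) had 0 to 3 reads per well on day 0 in either class, which is at the floor of 3 reads, so no fold from day 0 is given. It reached, in the low purity wells, 3.21 to 5.22 TPM on day 4, 11.1 to 17.2 TPM on day 6, 30.4 to 40.3 TPM on day 8, 106 to 125 TPM on day 13 and 159, 173 and 175 TPM on day 16. The high purity wells were lower on each of these days without overlap, at 0.595 to 1.82, 1.78 to 3.85, 3.11 to 4.63, 12.6 to 17.5 and then 12.0, 9.60 and 9.93 TPM. The log2 differences were -1.19 ± 0.16, -2.06 ± 0.16, -2.73 ± 0.18, -2.72 ± 0.20 and -3.69 ± 0.19 (adjusted p = 9.4e-21 on day 16). Those wells held 149 to 232 reads of the gene on day 16 in the high and 2249 to 3197 in the low purity class. The stromal and epicardial markers given above were higher in the same wells, and their part in the CDKN2B level was not tested.

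CDKN2A, the neighbouring gene for p16 and p14ARF (chr9:21967752-21995324), stayed near the limit of detection in the high purity class. On day 16 it had 0.148, 0.346 and 0.153 TPM there, from 3 to 6 reads per well, and 3.07, 2.53 and 3.63 TPM, from 50 to 69 reads, in the low purity wells. The difference on the log2(TPM + 1) scale was -1.76 ± 0.16 on day 16 and -1.69 ± 0.17 on day 13, and this scale understates the change of such a low gene. With a pseudocount of 0.1 the day 16 difference was -3.25 and with edgeR on recovered reads -3.61, and both also called CDKN2A lower on days 4, 6 and 8. On those days the high purity wells held 0 to 2, 0 to 2 and 0 to 9 reads and the low purity wells 5 to 11, 3 to 7 and 6 to 19. CDKN2A passed the filter on TPM through the low purity wells alone. Its differences between the classes, also within the counts of called members, are therefore a description. Of its exon bases 7.88% overlap CDKN2B-AS1 on the other strand. The remaining inhibitors were not called between the classes on any day. CDKN1B (p27) went from 9.54 to 10.5 TPM on day 0 to 18.0 to 24.1 TPM on day 16 in the high purity wells (1.23 ± 0.14) and from 8.11 to 14.3 TPM to 21.7 to 24.7 TPM in the low (0.90 ± 0.14, not called). RB1, the retinoblastoma gene, was at 24.5 to 31.2 and 23.7 to 28.7 TPM on day 0 and at 36.3 to 42.7 and at least 46.9 TPM on day 16, below the fold threshold in both classes.

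Other genes of the pathway, which are no members, were counted in the same way, and more of them than of all genes fell from day 0. Of 50 further mitotic genes tested, 49 had fallen by day 16 in the high and 45 in the low purity class, and of 30 further S phase genes 29 in each, beside 16.0% and 14.6% of all genes. On day 2, 19 of these 30 S phase genes had fallen in the high and 8 in the low purity class, beside 7.04% and 6.87% of all genes. Lower levels in the high purity class were called for 8 of the 50 and 2 of the 30 on day 8 and for 19 and 8 on day 16, beside 7.5% and 7.65% of all genes; 2 of 30 is no more than the share of all genes. MYBL2, a factor that works on CHR promoters in S and G2 phase, was at 2.03 to 3.72 TPM against 11.6 to 21.4 TPM on day 16 (-1.86 ± 0.18). FOXM1, which acts on mitotic genes in G2 phase, fell by 3.54 and 3.11, a day 16 difference of -0.46 ± 0.10. Of the RB1 relatives RBL1 fell by 2.11 in the high and 2.12 in the low purity class, while RBL2, which is found in the repressive complex of resting cells, rose in both, by 1.24 in the high purity class. CDKN2C was not called at day 16 in either class, and CDKN1C rose in the low purity class alone, to 1.74 to 3.21 TPM; in its day 0 wells CDKN1C was at 0.

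CDKN1A (p21), an inhibitor induced by p53 among others, was called between the classes on day 4. It rose from 1.56 to 3.69 TPM on day 0 to 33.0 to 46.6 TPM on day 2 in the high and from 2.36 to 3.81 TPM to 29.9 to 38.4 TPM in the low purity wells. On day 4 the high purity wells were back at 3.14, 3.82, 3.20 and 2.56 TPM, while the low purity wells had 41.5, 35.7, 33.1 and 40.4 TPM. The difference was 0.25 ± 0.16, not called, on day 2 and was called on day 4 (-3.19 ± 0.16, adjusted p = 1.1e-20), and by day 16 the ranges of 106 to 136 and 83.4 to 128 TPM overlapped. In the RNA-only WTC11 libraries it had 2.27, 13.8, 1.33 and 3.63 TPM over the 4 stages in the high and 4.50, 17.2, 2.41 and 11.2 TPM in the low purity differentiation, so that the dip at the third stage, day 4 for this line, was present in both. On day 4, 10 of 12 cardiomyocyte and 5 of 8 stromal markers were also lower in the multi-omic high purity wells, and their part in the CDKN1A difference was not tested.

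The 3 lines of the RNA-only experiment shared the early fall of the S phase genes. The libraries were compared with edgeR's quasi-likelihood test on counts of 23848 genes. From the first to the second stage 11 of 17 S phase genes fell, while 10.8% of all genes fell and 14.8% rose. CCNE1 (-1.79, adjusted p = 4.8e-06) went from 31.4 to 69.9 TPM to 8.84 to 23.8 TPM over the 6 differentiations, and MCM5 (-1.53, adjusted p = 2.3e-06) from 64.6 to 122 TPM to 21.7 to 38.5 TPM. Both were lower at the second stage in 6 of 6 differentiations, with no overlap between the stages. The mean log2 level of the S phase genes changed by -0.75 in H9 low, -0.77 in H9 high, -0.77 in IMR90-4 high, -1.04 in IMR90-4 low, -1.30 in WTC11 low and -1.65 in WTC11 high. Of the mitotic genes BUB1B fell (-1.34), and the group's mean changed by -0.45 to -0.70. Without the 2 WTC11 differentiations 4 S phase genes were called.

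Later steps moved few members. From the second to the third stage CCND1 alone was called (-1.08, adjusted p = 0.008), a call lost without IMR90-4 and without WTC11, and from the third to the fourth none was by edgeR, with 1 at an adjusted p under 0.05 and 1 called by DESeq2. Of all genes 3.29% fell and 3.57% rose in the former step, and 0.985% and 2.73% in the latter. CDK6 rose at the second stage (1.03, adjusted p = 0.022), but not in every line. H9 low went from 4.11 to 28.5 TPM, H9 high from 4.85 to 10.9 TPM, IMR90-4 high from 4.74 to 9.67 TPM and IMR90-4 low from 5.10 to 7.64 TPM. WTC11 low went from 6.28 to 6.38 TPM and WTC11 high from 7.76 to 5.07 TPM. This call was lost without H9 and without IMR90-4. CDKN2B was called higher at the second stage, from at most 0.0786 TPM to between 0.0432 and 1.07 TPM, levels so low that no fold is given. In WTC11 low it went the other way, from 0.0786 to 0.0432 TPM. The CDKN2B call was lost without IMR90-4.

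No gene of any kind was called between high and low purity at any of the 4 RNA-only stages by edgeR (0.0% of 23848 genes higher and 0.0% lower at each stage), with 354, 1896, 1798 and 2876 genes at an unadjusted p under 0.05. The median log2 difference of the S phase genes was -0.12, -0.20, -0.25 and -0.17 and that of the mitotic genes 0.03, 0.07, -0.27 and 0.19 over the 4 stages. CDKN2B at the fourth stage had 27.8 TPM in H9 low and 0.693 TPM in H9 high, 2.09 and 0.915 TPM in IMR90-4 low and high, and 0.869 and 0.904 TPM in WTC11 low and high (-1.93, adjusted p = 0.49). H9 low stands apart in this gene, and it also had the lowest mitotic level at that stage, -1.55 from its first stage against -0.58 to -0.93 in the other 5 differentiations. Its MKI67 level was 6.43 TPM there against 10.9 TPM in H9 high. The last stage was day 6 or 7, so the mitotic differences of days 8 and 16 have no counterpart in these lines.

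**Figure D5:**
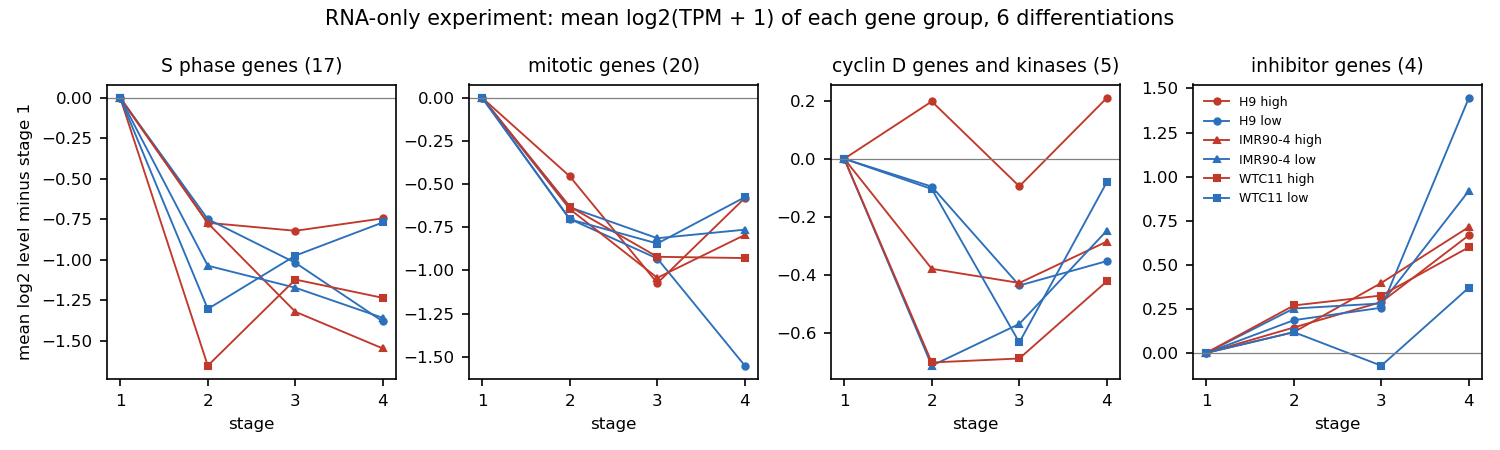
Mean log2 level of the S phase and mitotic genes in the 6 RNA-only differentiations, as the difference from the first stage, by stage. Each line is 1 differentiation. The S phase mean lay between -0.75 and -1.65 at the second stage in all 6, and H9 low had the lowest mitotic mean at the fourth stage, -1.55.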

How the data were processed

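The multi-omic experiment was tested on deposited TPM values, which the authors computed by steps not given in the sources used here. Reads were aligned to hg38 with STAR 2.5.3a and counted with featureCounts 2.0.3, per the submitters' processing notes; the strand setting and annotation are not given in the sources used here. The RNA-only experiment was tested on the counts that the authors deposited. In the multi-omic TPM table, 37194 genes gave whole reads when divided by the value of 1 read (tolerance 0.02 reads), among them all 46 members, and these recovered reads give the depth of each library (6580000 to 18100000). Genes without whole reads made up 0.247% of the summed TPM or less. The design planned counts unless the count columns disagreed with the TPM columns, which they did, so TPM was used. In all, 6 genes on 36 broken lines of the RNA-only count table were left out.

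In the multi-omic data, a gene was kept if 3 or more of the 56 libraries reached 1 TPM, TPM was scaled by TMM factors (edgeR 4.0.16), and log2(TPM + 1) was fitted with limma 3.58.1 (trend) in R 4.3.3 as 16 means of class and day, with 40 residual degrees of freedom. A fold change on this scale understates the change of low genes. Day 10, with 1 high purity well, was not tested. For the RNA-only experiment, edgeR's quasi-likelihood test compared high and low within line and stage (8 residual degrees of freedom), and successive stages with the 6 differentiations as a block (15 degrees). P-values were adjusted over all genes tested by the Benjamini-Hochberg method. The scripts were tested on simulated data.

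The members, gene lists and named genes were chosen with earlier results of these data known. Values are given for MKI67, TOP2A, CDK1, CCNB1, PLK1, PCNA, MCM2, MCM5, CCNE1, RRM2, E2F1, the cyclin D and inhibitor genes, the member with the largest called difference in each gene group and day, and members that move against their group. The steps from day 2 to 4 and from day 6 to 8 were added after the values had been seen. Alternatives were RLE scaling or none, a pseudocount of 0.1, no filter, edgeR on recovered reads, DESeq2 1.42.0 for the RNA-only counts, the count table under its own names, a replicate block, no fold threshold and leaving out each well or line. Promoters come from a RefSeq table of GRCh38.p14 and exon overlaps from GENCODE annotation of the same build.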

Additional observations from a re-analysis of the deposited data

Results flagged for a closer look

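The change from day 0 to day 16 differed between the classes for 18 members, by the interaction term of the limma fit with an adjusted p under 0.05 and a log2 size of at least 1. The differences (high minus low, log2 scale) among S phase genes were -1.01 for CDC25A, -1.14 for E2F1, -1.32 for E2F2, -1.39 for PCNA and -2.21 for RRM2. Among mitotic genes they were -1.64 for CDK1, -1.22 for CDC25B, -1.24 for CDC25C, -1.66 for AURKB, -1.04 for BUB1B, -1.06 for MAD2L1, -1.31 for TTK, -1.28 for CENPA and -1.15 for BIRC5. The cyclins CCND2 and CCND3 differed by -1.91 and -1.31. CDKN2A and CDKN2B differed by -1.76 and -3.71, from day 0 wells with at most 4 reads, so that both sizes depend on the pseudocount; with edgeR on recovered reads the CDKN2A difference did not pass the threshold. The E2F1 difference was -0.87 and not called without low purity day 16 well 1.

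In 9 of 220 groups of 4 wells, 1 well lay far from the other 3; chance alone marks about 1 in 20 groups. These were MKI67 in low purity day 8 well 1 (92.8 TPM, others 79.7 to 81.1), CDK1 in high purity day 2 well 2 (179.55 TPM, others 193.67 to 196.04) and CDK1 in low purity day 13 well 1 (102.69 TPM, others 70.7 to 75.1). They were also CCNB1 in low purity day 4 well 2 (225.88 TPM, others 242 to 244), PLK1 in low purity day 0 well 1 (139.87 TPM, others 159 to 161) and CCND2 in low purity day 6 well 4 (470.54 TPM, others 325 to 348). The last 3 were CDK4 in high purity day 4 well 4 (63.3 TPM, others 54.1 to 55.6) and CDKN2A in high purity day 0 well 3 (0.232 TPM) and low purity day 0 well 2 (0.195 TPM), with the other wells at 0.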

How the results depend on the processing

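Of 404 recomputed counts of called members, both directions summed, 373 stayed within 1.5 times the reported count; of the 390 of these with a fold threshold 347 did so in each direction, and in 3 the larger direction changed (days 4 and 6 between the classes under the names of the count table, and low purity day 4 against day 0 without scaling beyond TPM). Of 6471 single-gene comparisons, which leave out the names of the count table and the fit with no filter, 6341 kept their side of the threshold, 42 lost and 88 gained it and 0 reversed. Under the names of the count table, 382 of 461 called member changes had the opposite sign, and 212 of these were called in the opposite direction; with no filter 0 of 476 changed sign. Between the classes on days 0, 2, 4, 6, 8, 13 and 16 the counts were 0, 5, 3, 3, 5, 6 and 13. With no fold threshold they were 10, 34, 22, 28, 36, 26 and 38, beside 3757, 9609, 9447, 10230, 11329, 9204 and 11037 of all 25664 genes, since smaller changes then count. Under the names of the deposited count table they were 21, 3, 1, 7 and 3 on days 0 to 8 and 0 on day 16. Without scaling beyond TPM they were 10 on day 8 and 22 on day 16, with the median of all genes shifted by -0.18 and -0.12. The same setting gave 6 in place of 12 for high purity day 4 against day 0 (2 up and 4 down in place of 1 and 11, and 5 up and 4 down in place of 3 and 7 in the low purity class), 28 in place of 16 between days 6 and 8, and 28 in place of 18 for the difference in change to day 16. On day 8 a pseudocount of 0.1 and edgeR on recovered reads each gave 8. Leaving out 1 well gave 2 to 6 on day 2, 5 to 10 on day 8 and 10 to 23 between days 6 and 8 in the high purity class. In the RNA-only experiment the step to the second stage had 14 members (7 to 14 without 1 line, 30 with no fold threshold), the step to the third 1 (0 to 2 and 6) and the step to the fourth 0 (1 with DESeq2 and 1 with no fold threshold). With no fold threshold 12146, 3949 and 1515 of all 23848 genes passed in these steps. The causes were not tested. As to pairing, within a day, same-numbered wells of the 2 classes did not deviate together (24 pairs of wells, correlations from -0.018 to 0.032), and the numbers were taken as names; with the replicate block the day 16 count was 13, and no count moved by over 1.5 times. Depth limits CDKN2A, CCNE2 and the early CDKN2B levels, which rest on few reads.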

Other observations

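Day 10 had 1 high purity well and entered no comparison. In that well MKI67 was at 34.4 TPM and CDK1 at 61.3 TPM, while the 4 low purity wells had 53.6 to 64.1 and 127 to 154 TPM. PCNA was at 34.0 TPM against 91.1 to 124 TPM and RRM2 at 7.83 TPM against 25.0 to 33.0 TPM. CCND2 stood at 209.9 TPM against 863 to 969.9 TPM, CDK6 at 65.2 TPM against 210.3 to 236 TPM and CDKN2B at 5.28 TPM against 50.9 to 66.0 TPM. CCNB1 was at 68.4 TPM against 82.0 to 92.5 TPM. In deposited TPM the high purity well lay below the range of the low purity wells for each of these 8 genes, a choice among the members. Its scaling factor was 0.853 against 1.11 to 1.15 in the low purity wells, so scaling narrows these gaps. The mean log2(scaled TPM + 1) of the mitotic genes was 5.29 in that well, within the 5.26 to 5.40 of the low purity wells. That of the S phase genes was 3.83, below 4.24 to 4.37.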
